A study of Mus musculus with 16 samples.

Results

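The genes described here are 34 genes that astrocytes of the mouse brain are known for, chosen by name from the 23284 genes of a table of RNA levels in the prefrontal cortex (PFC). All 34 were found, and all 34 passed the filter on low values (a mean of at least 0.5 FPKM over the 16 libraries). FPKM is a level of RNA as sequenced fragments, scaled to the length of the transcript and to the number of fragments mapped in the library. The PFC was freshly dissected from mice of 2 to 3 months, of both sexes, and 1 polyA-selected library was made for each of 4 mice per genotype. The labels write Bcat for β-cat (β-catenin), and the 3 mutant lines carried the same CamKIIα-Cre-93 transgene, whose recombinase acts mainly in forebrain excitatory neurons after birth. APC cKO mice were APC fl/fl, with exons 11 and 12 of Apc floxed. The β-cat cOE mice were ctnnb1 fl(ex3)/+, and loss of exon 3 from 1 allele leaves a β-catenin that resists degradation. APC/β-cat cKO mice were floxed at both Apc alleles and, at exons 2 to 6, both ctnnb1 alleles. In what follows, cOEs are the β-cat cOE mice and double cKOs the APC/β-cat cKO mice. Controls were Cre-negative littermates pooled from all the lines, so the presence of Cre and the alleles it recombined cannot be told apart against them. The transgene was aimed at neurons and not at astrocytes in every line, and the tissue sampled held neurons, glia and vessels together. In such bulk RNA, fewer cells of a type and less RNA per cell cannot be told apart.

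Astrocytes take up glutamate and GABA from synapses, turn glutamate into glutamine, buffer potassium and water, and cover blood vessels with end feet. They are coupled to each other by gap junctions and supply neurons with lipoprotein particles. In injury and inflammation they become reactive and make more intermediate filament, of which GFAP is the best known component. β-catenin acts in cell adhesion and as a partner of TCF/LEF factors in Wnt signalling, and APC is part of the complex that marks it for degradation.

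The targeted gene Apc was at 40.8 to 50.1 FPKM in controls, 38.8 to 49.5 FPKM in cOEs, 7.85 to 17.1 FPKM in APC cKOs and 6.80 to 12.2 FPKM in double cKOs. This followed the labels. The level of Ctnnb1 as a whole gene was at 150.9 to 182 FPKM over all libraries, which does not show the loss of single exons. From 5726 to 6649 genes were listed at 0 in a library, and the depth of the libraries is unknown, since the table holds no counts. By Xist and 4 Y-linked genes, control 1 and APC cKO 1 were female and the other 14 libraries male.

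The PFC of control mice held the astrocyte genes at very different levels. Cst3 (cystatin C, a secreted protease inhibitor) was at 1988 ± 309.9 FPKM (SD, n = 4) and Apoe (apolipoprotein E, the main lipid carrier of the brain) at 1167 ± 88.2 FPKM (SD, n = 4). Next in order were Glul at 713 FPKM, Mt3 at 594 FPKM, Aldoc at 398 FPKM, Mt1 at 383 FPKM, Clu at 374 FPKM and Slc1a2 at 312 FPKM. The libraries of Glul overlapped with those of Mt3, and each of the last 4 overlapped with its neighbours among them. At the low end were Sox9 at 4.73 ± 0.48 FPKM, Plcd4 at 4.42 ± 0.372 FPKM and Agt at 2.30 ± 0.50 FPKM (SD, n = 4 each). The defining markers Aqp4, Gfap, Slc1a2, Slc1a3, Aldh1l1, Gja1, Aldoc, S100b and Sox9 were all detected in every library.

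**Figure D1:**
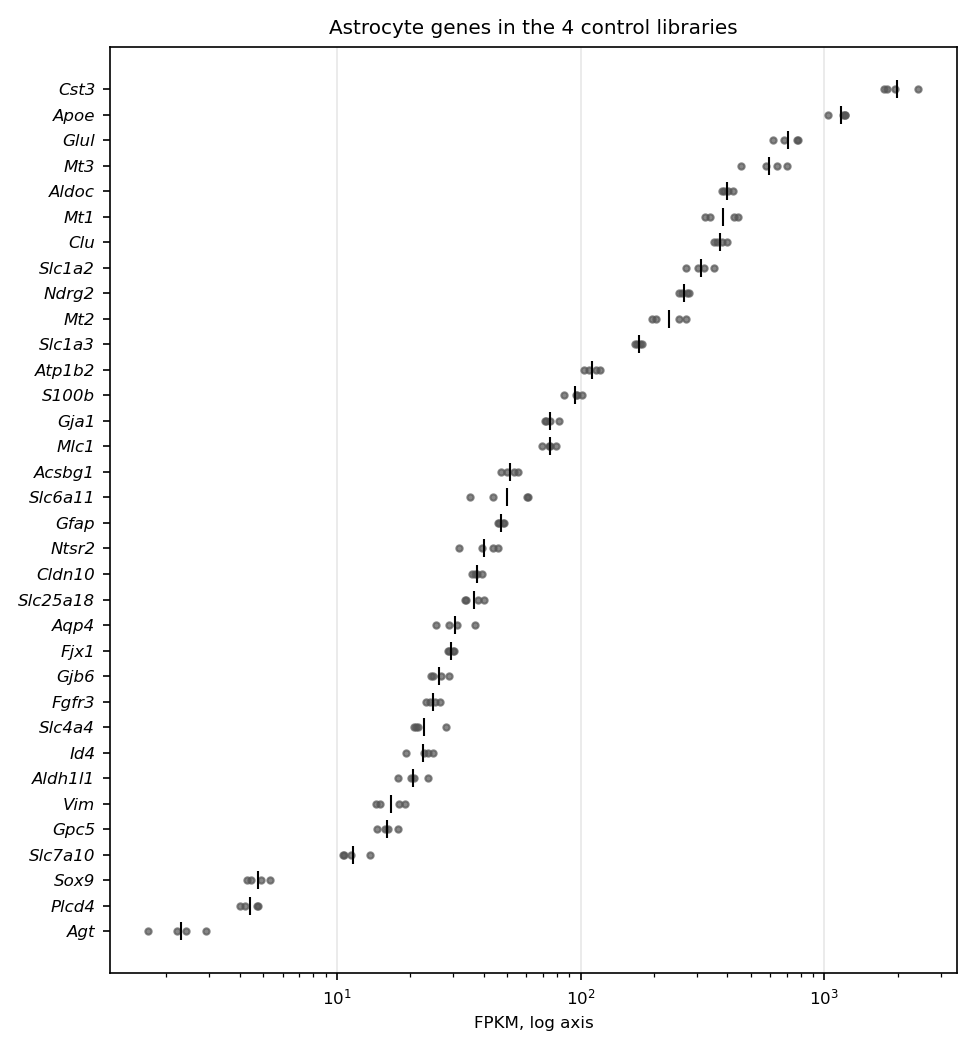
The FPKM of the 34 astrocyte genes in the 4 control libraries (points, log axis) with the mean of each gene (bar), ordered by that mean. Levels run from 2.30 FPKM for Agt to 1988 FPKM for Cst3.

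No astrocyte gene passed limma's test at an adjusted p under 0.05 in any of the 6 comparisons between genotypes. Of all 13978 genes tested, 6 passed in APC cKOs against controls (0.0429%), 2 in cOEs (0.0143%) and 29 in double cKOs (0.207%). Between the lines, 30 passed in APC cKOs against double cKOs (0.215%), 32 in cOEs against double cKOs (0.229%) and 6 in APC cKOs against cOEs (0.0429%). The values that follow are therefore measured differences that did not pass the test over all genes, and an unadjusted p under 0.05 is used only to pick them out. Changes are on the scale of log2(FPKM + 0.1), written with the standard error (SE) of the fit, and every adjusted p is limma's.

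Against controls, 9 of the 34 genes were higher in APC cKOs at an unadjusted p under 0.05 (26.5%, against 4.82% of all genes), namely Cst3, Id4, Gfap, Apoe, Fjx1, Gja1, Ntsr2, Clu and Vim. S100b alone was lower (2.94%, against 5.19% of all genes). In cOEs, Fjx1, Id4 and Gja1 were higher (3 genes or 8.82%, against 2.3%) and Glul was lower (2.94%, against 2.77%). In double cKOs, Cldn10, Cst3, Clu and Mt3 were higher (4 genes or 11.8%, against 7.17%) and Slc1a2 was lower (2.94%, against 7.03%). The 3 comparisons share the 4 controls, so they are not independent of each other. The median log2 change of the 34 genes was 0.09 in APC cKOs, 0.07 in cOEs and 0.08 in double cKOs, beside 0.00 over all genes in each. The change was above 0 for 21, 27 and 26 of the 34 genes in this order (61.8%, 79.4% and 76.5%). Over all genes these shares were 48.6%, 48.5% and 50.9%. The genes were measured in the same libraries, so their signs are not independent.

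The count in APC cKOs rested in part on 1 library. Without APC cKO 1 it was 5 in place of 10, and the median change was 0.02. APC cKO 1 was above the control mean in 27 of the 34 genes and held the highest level of all 16 libraries in 11 of them. The library double cKO 2 was above the control mean in 30 genes and cOE 1 in 28, while double cKO 4 and cOE 3 of the same genotypes were above it in 15 and 13. Without double cKO 2 the count in that line was 2 in place of 5, and the median change was 0.01. In cOEs the count was 1 in place of 4 without control 3. The shares of all genes at that threshold are given for the main fit only, so the counts without a library have no background to be read against.

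**Figure D2:**
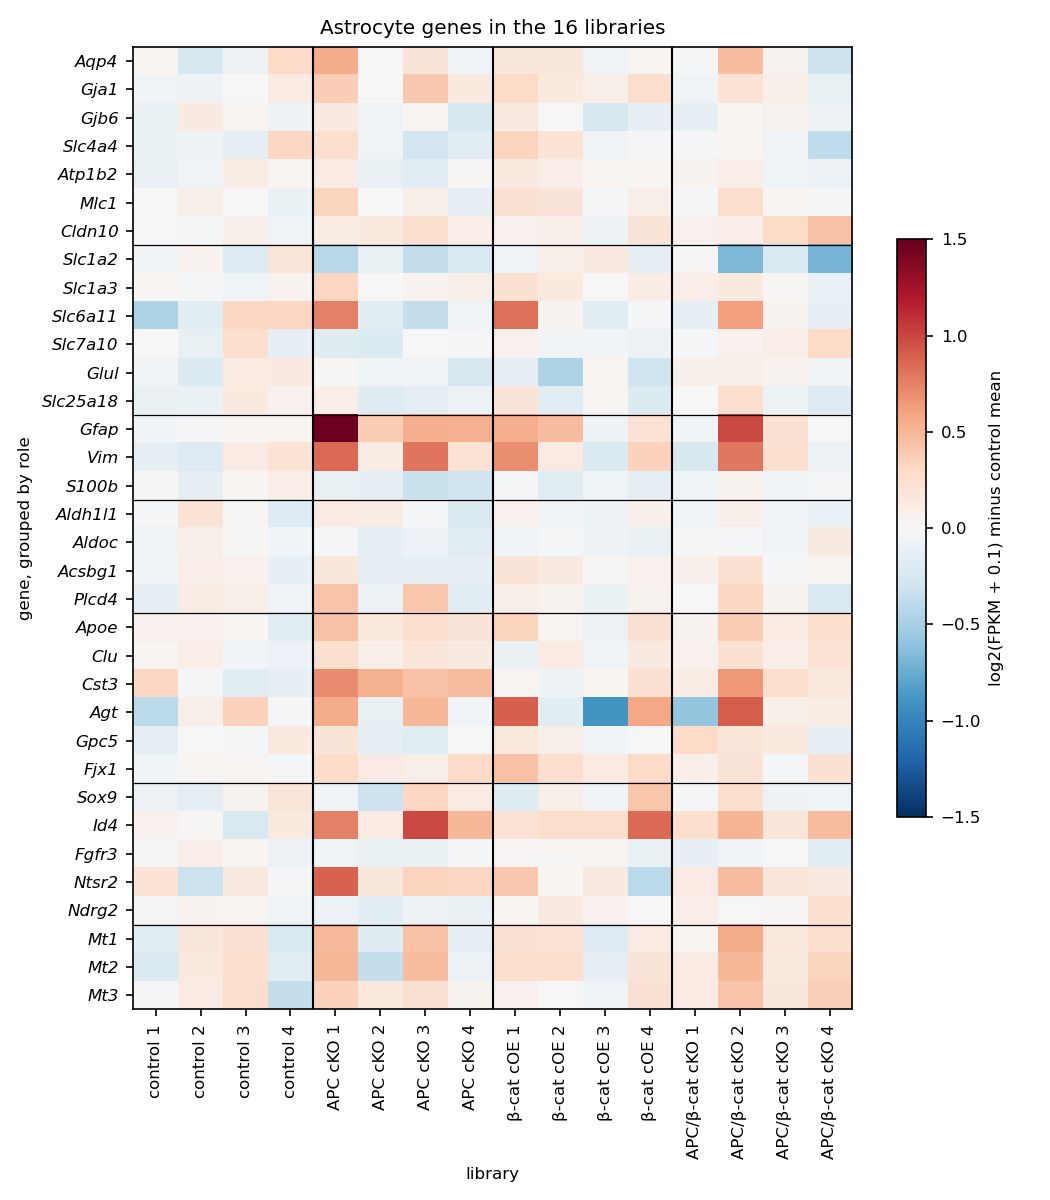
The difference of each astrocyte gene from its control mean in each of the 16 libraries, as log2(FPKM + 0.1), with the genes grouped by role. Single columns (APC cKO 1, cOE 1 and double cKO 2) are high in most genes, and Gfap is high in all 4 APC cKOs.

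Of the channel and junction genes, Aqp4, which encodes the water channel of the end feet, differed little between genotypes. Aqp4 was at 31.02, 25.6, 28.7 and 36.9 FPKM in the 4 controls, at 44.8, 30.1, 34.6 and 29.2 FPKM in APC cKOs, at 33.99, 34.05, 29.1 and 30.9 FPKM in cOEs and at 29.9, 41.8, 31.5 and 24.3 FPKM in double cKOs. APC cKO 1 and double cKO 2 were the highest libraries and double cKO 4 the lowest, and all groups overlapped. Against controls, its log2 change was 0.17 ± 0.16 in APC cKOs, 0.08 ± 0.16 in cOEs and 0.05 ± 0.16 in double cKOs.

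Gja1 encodes connexin 43, the main gap junction protein of astrocytes, and lies on chr10:56377330-56402513 (mm10). Gja1 was at 72.4, 71.2, 75.3 and 81.4 FPKM in the 4 controls, at 96.9, 74.9, 99.6 and 82.7 FPKM in APC cKOs, at 92.2, 82.7, 79.4 and 90.01 FPKM in cOEs and at 72.6, 86.6, 79.03 and 69.2 FPKM in double cKOs. In APC cKOs and in cOEs, 3 of 4 libraries were above the highest control. The log2 change was 0.23 ± 0.09 (adjusted p = 0.419) in APC cKOs, 0.20 ± 0.09 (adjusted p = 0.946) in cOEs and 0.03 ± 0.09 in double cKOs. The partner connexin 30 gene Gjb6 was at 22.2 to 28.8 FPKM over all libraries, and its change was between -0.06 and -0.03 in the 3 lines.

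Cldn10, which encodes a claudin, was at its highest in double cKOs. Cldn10 was at 37.6, 37.02, 39.6 and 35.7 FPKM in the 4 controls, at 40.4, 41.4, 44.4 and 40.01 FPKM in APC cKOs, at 39.3, 39.6, 35.4 and 42.8 FPKM in cOEs and at 39.1, 40.3, 45.5 and 50.9 FPKM in double cKOs. All 4 APC cKOs and 3 of 4 double cKOs were above the highest control. Its log2 change was 0.15 ± 0.08 (adjusted p = 0.539) in APC cKOs and 0.22 ± 0.08 (adjusted p = 0.278) in double cKOs. The other genes of ion transport and membrane contact differed less. Slc4a4 (a sodium bicarbonate cotransporter), Atp1b2 (a subunit of the sodium pump) and Mlc1 (a membrane protein of the end feet) had changes between -0.11 and 0.12 in the 3 lines, each with an unadjusted p of 0.05 or more.

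Of the glutamate transporters, Slc1a2 (GLT-1, which clears most of the glutamate of the adult forebrain) had its lowest means in the lines with Apc deleted, whereas the lowest mean of Slc1a3 (GLAST) was that of the controls. Slc1a2 lies on chr2:102658659-102790784 (mm10). Slc1a2 was at 303, 322, 272 and 352 FPKM in the 4 controls, at 233, 291, 243 and 265 FPKM in APC cKOs, at 301, 329, 340.1 and 280.2 FPKM in cOEs and at 314, 194, 265 and 192 FPKM in double cKOs. In both APC cKOs and double cKOs, 3 of 4 libraries were below the lowest control, whereas cOEs lay within the range of the controls. Against controls, the log2 change of Slc1a2 was -0.40 ± 0.14 (adjusted p = 0.278) in double cKOs, -0.27 ± 0.14 (adjusted p = 0.523) in APC cKOs and 0.00 ± 0.14 in cOEs. The log2 difference of cOEs from double cKOs was 0.40 ± 0.14 (adjusted p = 0.257). Slc1a3 was at 176, 170.1, 167 and 179 FPKM in the 4 controls, at 216, 173, 179.9 and 183 FPKM in APC cKOs, at 204, 191, 174 and 187 FPKM in cOEs and at 185, 191, 175 and 160.1 FPKM in double cKOs. APC cKO 1 and cOE 1 were the highest, and its log2 change was between 0.04 and 0.12 in the 3 lines.

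Glul encodes glutamine synthetase, which makes glutamine from the glutamate taken up. Glul was at 682, 617, 773 and 779.6 FPKM in the 4 controls, at 717, 679.6, 677 and 602 FPKM in APC cKOs, at 652, 515, 725 and 575 FPKM in cOEs and at 748, 754, 733 and 688 FPKM in double cKOs. In cOEs, 2 of 4 libraries were below the lowest control. Without cOE 2 the change in that line was -0.13. For Glul the log2 change was -0.21 ± 0.10 (adjusted p = 0.946) in cOEs, -0.09 ± 0.10 in APC cKOs and 0.04 ± 0.10 in double cKOs. The log2 difference of cOEs from double cKOs was -0.26 ± 0.10 (adjusted p = 0.323).

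The GABA transporter gene Slc6a11 (GAT-3) had the widest spread within genotypes of the 34 genes after Agt. This is by the residual SD, that of log2 levels around the genotype means. It was at 35.3 FPKM in control 1, at 82.2 FPKM in APC cKO 1, at 86.8 FPKM in cOE 1 and at 75.0 FPKM in double cKO 2, and the other 12 libraries lay between 38.2 and 60.7 FPKM. Its log2 change was between 0.05 and 0.17 in the 3 lines, with a residual SD of 0.42. Slc7a10 (the Asc-1 amino acid transporter) was at 10.01 to 14.2 FPKM and Slc25a18 (a mitochondrial glutamate carrier) at 31.4 to 42.9 FPKM over all libraries. For Slc7a10, APC cKOs differed from double cKOs by -0.21 ± 0.09 (adjusted p = 0.449).

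Gfap encodes the intermediate filament protein by which astrocytes are most often stained, and lies on chr11:102887336-102900912 (mm10). Gfap was at 45.9, 46.3, 48.3 and 48.6 FPKM in the 4 controls, at 132, 61.4, 69.00 and 68.5 FPKM in APC cKOs, at 69.00, 65.3, 44.7 and 55.1 FPKM in cOEs and at 45.4, 93.7, 55.5 and 46.9 FPKM in double cKOs. The controls were close together, at 47.3 ± 1.39 FPKM (SD, n = 4), and all 4 APC cKOs were above them, as were 3 of 4 cOEs and 2 of 4 double cKOs. The log2 change was 0.73 ± 0.23 (adjusted p = 0.328) in APC cKOs, 0.29 ± 0.23 in cOEs and 0.29 ± 0.23 in double cKOs. Without APC cKO 1, which was 1 of the 2 female libraries, the change in APC cKOs was 0.49, and over all alternatives it was between 0.46 and 0.85 with an unadjusted p of at most 0.0269.

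Vim encodes vimentin, a filament protein that immature and reactive astrocytes share with ependymal, endothelial and meningeal cells. It was at 14.5 to 19.1 FPKM in controls and at 17.9 to 29.9 FPKM in APC cKOs, a log2 change of 0.49 ± 0.23 (adjusted p = 0.495). The unadjusted p was under 0.05 in 12 of 27 alternatives. Across the 16 libraries, the deviations of Vim from its genotype means went with those of Gfap (Pearson r = 0.80, permutation p = 0.00013, Benjamini-Hochberg adjusted 0.00026, Spearman rho = 0.83, permutation p = 5e-05, adjusted 0.0001). With the 2 libraries farthest from the median of Gfap left out, r was 0.73. This was 1 of 4 pairs computed.

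S100b, a calcium-binding protein gene, had its lowest mean in APC cKOs. S100b was at 96.00, 85.5, 96.7 and 102 FPKM in the 4 controls, at 87.7, 85.8, 75.3 and 77.2 FPKM in APC cKOs, at 92.7, 85.00, 90.8 and 85.6 FPKM in cOEs and at 90.7, 98.2, 91.8 and 93.6 FPKM in double cKOs. Of the 4 APC cKOs, 2 were below the lowest control, and all 4 were below the lowest double cKO. The log2 change of APC cKOs was -0.22 ± 0.06 (adjusted p = 0.310) against controls and -0.20 ± 0.06 (adjusted p = 0.267) against double cKOs. S100b is also made by oligodendrocytes. Of the 12 genes of an oligodendrocyte list, 6 were lower and none higher in APC cKOs at an unadjusted p under 0.05 (5.19% of all genes were lower), with a median log2 change of -0.26. In double cKOs 4 were higher and none lower (7.17% of all genes were higher), with a median of 0.18. In APC cKOs against double cKOs 10 of the 12 were lower (6.13% of all genes), with a median of -0.45. None was called. The mean log2 level of that list was 4.99 to 5.47 in controls, 4.86 to 5.12 in APC cKOs and 5.34 to 5.54 in double cKOs. Its part in the level of S100b was not tested.

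**Figure D3:**
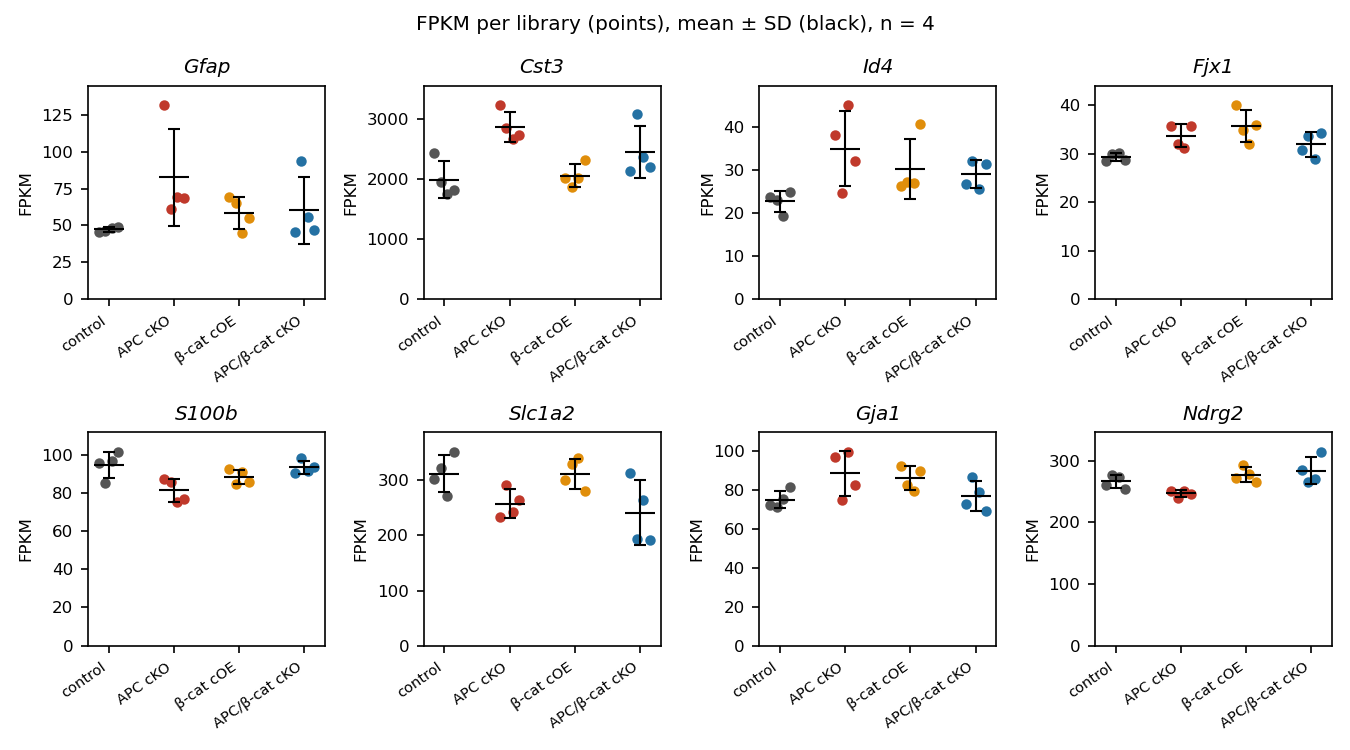
The FPKM of 8 astrocyte genes in each library (points, from left to right replicates 1 to 4), with the mean and SD of each genotype in black. Cst3 and Gfap of all APC cKOs lie above the controls, Ndrg2 of all APC cKOs lies below every other group, and Slc1a2 is low in 3 of 4 double cKOs.

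Of the 4 metabolic enzyme genes, none was at an unadjusted p under 0.05 against controls in any line. Aldh1l1, a folate enzyme gene used as a pan-astrocyte marker, lies on chr6:90486427-90600203 (mm10). Aldh1l1 was at 20.1, 23.6, 20.8 and 17.8 FPKM in the 4 controls, at 22.2, 22.1, 20.3 and 17.7 FPKM in APC cKOs, at 21.5, 19.7, 19.4 and 21.5 FPKM in cOEs and at 19.7, 21.6, 19.7 and 19.02 FPKM in double cKOs. The group means were between 20.03 and 20.6 FPKM and the log2 change was 0.00 ± 0.09 in APC cKOs, 0.00 ± 0.09 in cOEs and -0.03 ± 0.09 in double cKOs. Aldoc encodes the brain form of the glycolytic enzyme aldolase. Aldoc was at 381, 422, 403 and 387 FPKM in the 4 controls, at 392.3, 362, 375 and 355 FPKM in APC cKOs, at 385, 391, 377 and 369 FPKM in cOEs and at 403, 393, 386 and 438 FPKM in double cKOs. APC cKOs differed from double cKOs by a log2 change of -0.12 ± 0.05 (adjusted p = 0.422), with groups that overlapped. Acsbg1, an enzyme gene that activates long-chain fatty acids, was at 46.5 to 60.2 FPKM. In it APC cKOs differed from cOEs by a log2 change of -0.16 ± 0.08 (adjusted p = 0.658). Plcd4 (a phospholipase C) was at 3.74 to 5.98 FPKM, with changes of 0.03 to 0.15 in the 3 lines.

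Among the secreted proteins, Cst3 gave the smallest unadjusted p of the 34 genes against controls. It lies on chr2:148871722-148875692 (mm10), and cystatin C, which inhibits cathepsins, is also made by microglia and choroid plexus. Cst3 was at 2435, 1954, 1751 and 1813 FPKM in the 4 controls, at 3226, 2854, 2663 and 2726 FPKM in APC cKOs, at 2024, 1868, 2012 and 2318 FPKM in cOEs and at 2134, 3088, 2373 and 2205 FPKM in double cKOs. All 4 APC cKOs were above the highest control and above the highest cOE. Against controls, the log2 change of Cst3 was 0.54 ± 0.12 (adjusted p = 0.204) in APC cKOs, 0.06 ± 0.12 in cOEs and 0.30 ± 0.12 (adjusted p = 0.301) in double cKOs, and APC cKOs were higher than cOEs by 0.48 ± 0.12 (adjusted p = 0.269). Without control 1, the control library with the highest Cst3, APC cKOs against the other 3 controls gave an adjusted p of 0.028. Across all alternatives that change against controls was between 0.48 and 0.64, with an adjusted p of up to 0.771. In double cKOs the change was 0.16 with quantile scaling and 0.18 without double cKO 2. The 12 genes of a microglial list had a median log2 change of 0.01 in APC cKOs, 0.09 in cOEs and 0.17 in double cKOs.

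Apoe was at 1036 to 1222 FPKM in controls and at 1298 to 1584 FPKM in APC cKOs, with no overlap. Its log2 change was 0.26 ± 0.10 (adjusted p = 0.386) in APC cKOs, 0.13 ± 0.10 in cOEs and 0.20 ± 0.10 in double cKOs. Clu, the gene of the lipoprotein clusterin, was at 352 to 401 FPKM in controls, 396 to 439.9 FPKM in APC cKOs and 390.5 to 439 FPKM in double cKOs. Its log2 change was 0.16 ± 0.06 (adjusted p = 0.428) in APC cKOs and 0.15 ± 0.06 (adjusted p = 0.310) in double cKOs. Both groups overlapped with controls. With quantile scaling the change was 0.14 for Apoe in APC cKOs and 0.06 for Clu in double cKOs.

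Fjx1 encodes a secreted protein related to the Four-jointed kinase of the fly, and lies on chr2:102449366-102452499 (mm10). Fjx1 was at 28.5, 29.9, 30.2 and 28.7 FPKM in the 4 controls, at 35.6, 31.99, 31.2 and 35.7 FPKM in APC cKOs, at 39.95, 34.9, 32.1 and 35.9 FPKM in cOEs and at 30.8, 33.7, 28.8 and 34.3 FPKM in double cKOs. All 4 cOEs and all 4 APC cKOs were above the highest control, and 3 of 4 double cKOs were. This gave a log2 change of 0.28 ± 0.07 (adjusted p = 0.946) in cOEs, 0.19 ± 0.07 (adjusted p = 0.386) in APC cKOs and 0.12 ± 0.07 in double cKOs. In cOEs the unadjusted p was at most 0.00696 over all alternatives. Against double cKOs, cOEs were higher by 0.16 ± 0.07 (adjusted p = 0.398). Agt (angiotensinogen) had the widest spread of the 34 genes, at 1.16 to 4.32 FPKM, and Gpc5 (a glypican of the cell surface) was at 14.2 to 19.5 FPKM. Neither had an unadjusted p under 0.05 in any comparison.

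Of the regulators, Id4 differed most. Id4 encodes an inhibitor of basic helix-loop-helix factors and lies on chr13:48261228-48266026 (mm10). Id4 was at 23.7, 22.9, 19.2 and 24.9 FPKM in the 4 controls, at 38.03, 24.6, 44.9 and 31.9 FPKM in APC cKOs, at 26.3, 27.1, 26.97 and 40.7 FPKM in cOEs and at 26.6, 32.1, 25.6 and 31.5 FPKM in double cKOs. All cOEs and double cKOs and 3 of 4 APC cKOs were above the highest control. The log2 change was 0.59 ± 0.17 (adjusted p = 0.310) in APC cKOs, 0.40 ± 0.17 (adjusted p = 0.946) in cOEs and 0.35 ± 0.17 (adjusted p = 0.354) in double cKOs. Without cOE 4 it was 0.25 in cOEs.

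The highest values of Id4 within the mutant lines stood in libraries that were also the highest in the mean of an ependymal and choroid plexus list. The mean log2 level of 12 ependymal and choroid plexus genes was 1.09 in APC cKO 1, 1.43 in APC cKO 3, 0.93 in cOE 4 and 0.83 in double cKO 2. In the other 12 libraries it was -1.01 to 0.58, with controls at -0.75 to -0.22. Id4 was at 38.03, 44.9, 40.7 and 32.1 FPKM in those 4 libraries. Foxj1, a defining gene of ciliated ependymal cells, was at 3.38, 4.69, 3.82 and 3.48 FPKM there and at 0.373 to 1.53 FPKM elsewhere, and Tmem212 was listed at 0 in 5 libraries. Along with Foxj1 and Tmem212, the genes Ccdc153, Dynlrb2 and Rarres2 were higher in each of those 4 libraries than in any other, and the other 7 genes of the list were not. Ttr (transthyretin, the main product of choroid plexus) was at 1.87, 0.591, 0.346 and 4.21 FPKM there and at 0.387 to 5.89 FPKM elsewhere. Of the 12 genes 10 were tested, of which Kl was higher in APC cKOs at an unadjusted p under 0.05 and none was called.

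Without those 4 libraries, chosen after the data were seen, the log2 change of Id4 was 0.31 in APC cKOs and 0.25 in cOEs. Those of Gfap and Cst3 in APC cKOs were 0.46 and 0.50. The change in APC cKOs was 0.07 for Gja1, 0.16 for Vim, 0.18 for Apoe and 0.24 for Ntsr2. The median change of the 34 genes in APC cKOs then was -0.07, and 5 genes were at an unadjusted p under 0.05. APC cKO 2 and APC cKO 4 alone stood for the line in that fit. No control was left out, and the 4 libraries held the highest Id4 of their lines. A smaller change of Id4 was therefore fixed in advance. In APC cKOs the same held for Gfap, Gja1, Vim, Apoe and Ntsr2. The share of all genes at that threshold in this fit is not given, so the count of 5 has no background.

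**Figure D4:**
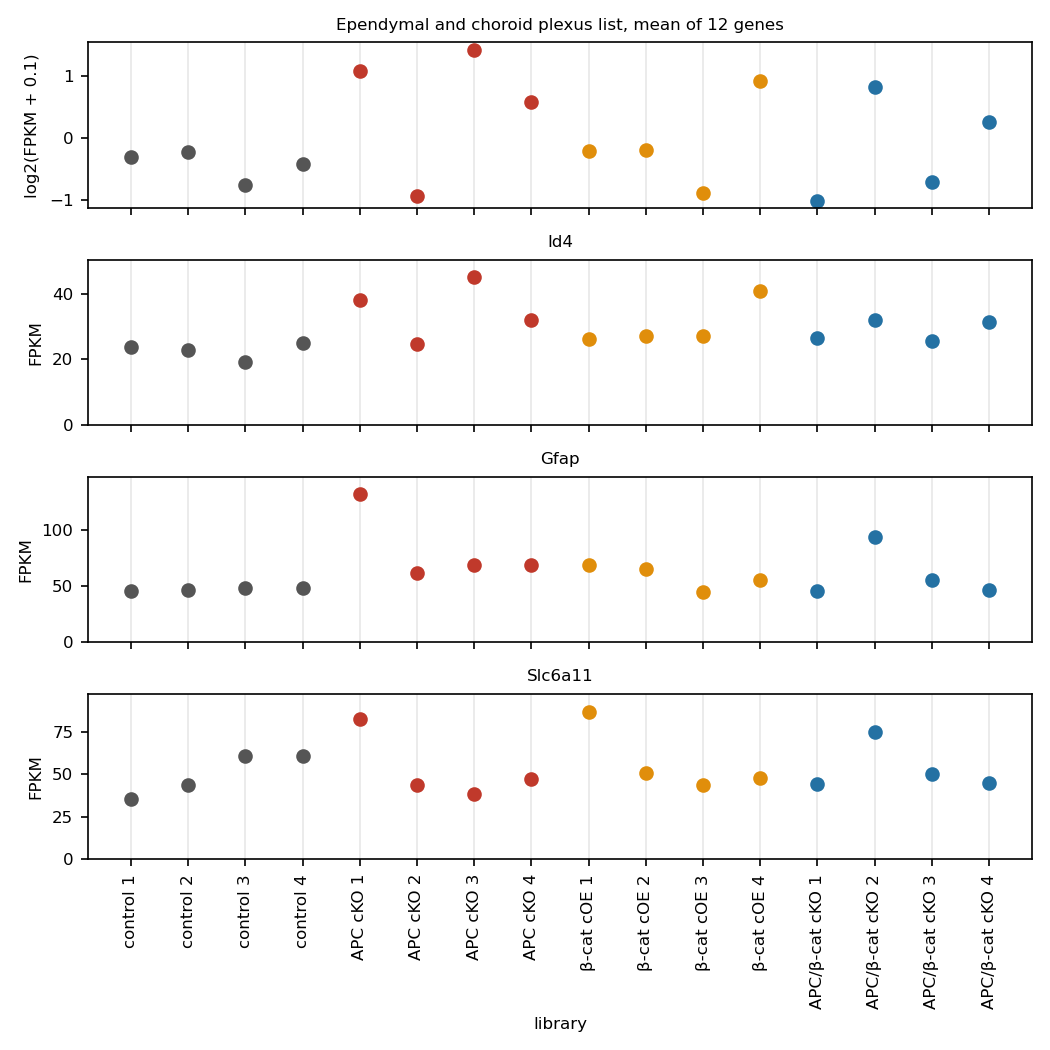
From top to bottom, the mean log2(FPKM + 0.1) of 12 ependymal and choroid plexus genes, and the FPKM of Id4, Gfap and Slc6a11, in each of the 16 libraries. The libraries highest in the list (APC cKO 1 and 3, cOE 4 and double cKO 2) are the highest in Id4 within their genotypes, while Gfap and Slc6a11 peak in APC cKO 1, cOE 1 and double cKO 2.

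Ntsr2, the gene of a neurotensin receptor found on astrocytes, followed a different order. Ntsr2 was at 46.02, 31.9, 43.9 and 39.5 FPKM in the 4 controls, at 73.7, 44.8, 50.5 and 49.6 FPKM in APC cKOs, at 52.7, 40.6, 43.8 and 30.1 FPKM in cOEs and at 43.3, 55.2, 45.5 and 43.9 FPKM in double cKOs. APC cKO 1 was the highest library and cOE 4 the lowest. Its log2 change was 0.42 ± 0.17 (adjusted p = 0.424) in APC cKOs and 0.04 ± 0.17 in cOEs, and APC cKOs were higher than cOEs by 0.39 ± 0.17 (adjusted p = 0.619). Without APC cKO 1 the change against controls was 0.27.

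Ndrg2 encodes a cytoplasmic protein of astrocytes and lies on chr14:51905271-51914158 (mm10). Ndrg2 was at 261, 278, 274 and 254 FPKM in the 4 controls, at 251, 239.8, 251 and 247 FPKM in APC cKOs, at 271, 294, 278 and 266 FPKM in cOEs and at 285, 266, 270.4 and 314 FPKM in double cKOs. The 4 APC cKOs were the lowest of the 16 libraries. Their log2 change was -0.20 ± 0.05 (adjusted p = 0.185) against double cKOs, -0.17 ± 0.05 (adjusted p = 0.457) against cOEs and -0.11 ± 0.05 (adjusted p = 0.513) against controls. The glial transcription factor gene Sox9 was at 3.77 to 6.31 FPKM and Fgfr3, a fibroblast growth factor receptor gene, at 22.3 to 26.5 FPKM. Fgfr3 had the smallest spread of the 34 genes.

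In the comparisons between lines, 1 astrocyte gene was higher (Gja1, 2.94%, against 4.15% of all genes) and 4 were lower (Ndrg2, S100b, Aldoc and Slc7a10, 11.8%, against 6.13%) in APC cKOs than in double cKOs at an unadjusted p under 0.05. In cOEs against double cKOs, 2 were higher (Slc1a2 and Fjx1, 5.88%, against 5.04%) and 1 was lower (Glul, 2.94%, against 6.88%). In APC cKOs against cOEs, 2 were higher (Cst3 and Ntsr2, 5.88%, against 3.63%) and 2 were lower (Ndrg2 and Acsbg1, 5.88%, against 3.93%). The median log2 change of the 34 genes was 0.01, -0.02 and -0.01 in this order, and the largest of the 3 leave-one-out ranges ran from -0.09 to 0.07.

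**Figure D5:**
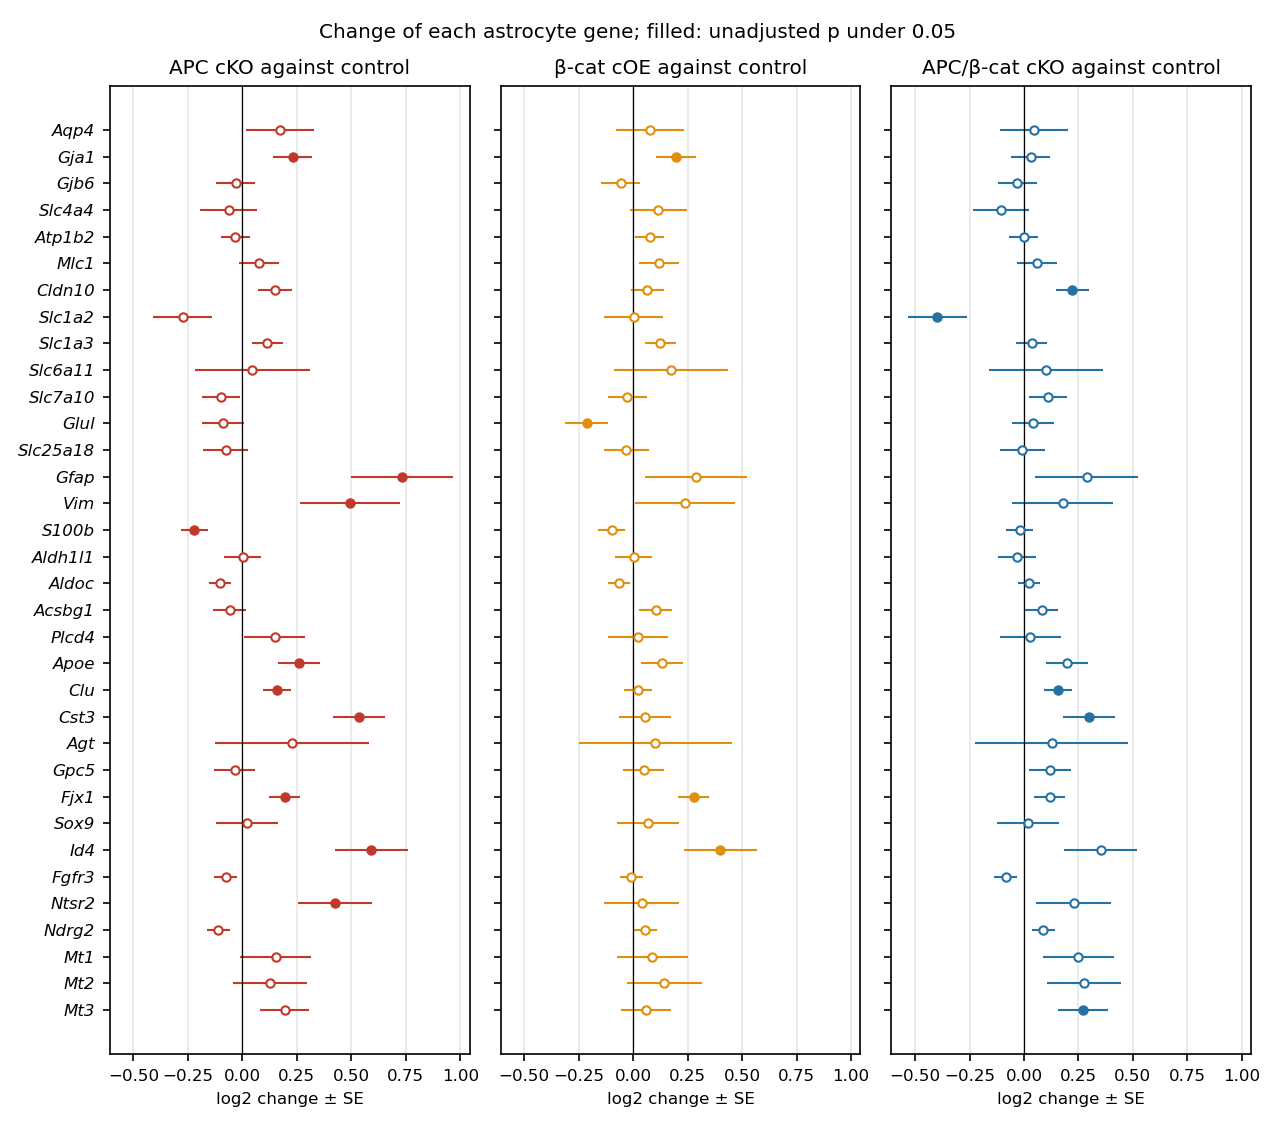
The log2 change of the 34 astrocyte genes in each mutant line against controls, with the SE of the limma fit. Filled points mark an unadjusted p under 0.05. In APC cKOs 10 points are filled, led in size by Gfap, in cOEs 4, and in double cKOs 5, of which only Slc1a2 lies below 0.

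The metallothionein genes Mt1, Mt2 and Mt3, whose small proteins bind zinc and copper, lie next to each other on chromosome 8 (mm10), with 18517 bases between Mt3 and Mt2 and 5513 between Mt2 and Mt1. Mt1 was at 323 to 556 FPKM, Mt2 at 179 to 325 FPKM and Mt3 at 457 to 789 FPKM over all libraries. Mt1 and Mt2 rise in many cells with glucocorticoids and, through sites for the metal-dependent factor MTF1, with metals. Mt3 is mostly a brain form. The 250 bases before the annotated RefSeq start of each (GRCm38.p6, plus strand) are shown because the levels of Mt1 and Mt2 moved together. They are chr8:94178839-94179088 for Mt1, chr8:94172368-94172617 for Mt2 and chr8:94152357-94152606 for Mt3. Capitals mark the core of the metal response element (TGCACNC or TGCGCNC, on either strand).
Mt1: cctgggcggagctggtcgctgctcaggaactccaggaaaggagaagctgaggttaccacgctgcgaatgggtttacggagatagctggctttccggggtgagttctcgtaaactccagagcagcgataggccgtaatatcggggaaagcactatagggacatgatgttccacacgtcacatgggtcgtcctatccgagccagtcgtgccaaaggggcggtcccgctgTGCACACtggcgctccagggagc
Mt2: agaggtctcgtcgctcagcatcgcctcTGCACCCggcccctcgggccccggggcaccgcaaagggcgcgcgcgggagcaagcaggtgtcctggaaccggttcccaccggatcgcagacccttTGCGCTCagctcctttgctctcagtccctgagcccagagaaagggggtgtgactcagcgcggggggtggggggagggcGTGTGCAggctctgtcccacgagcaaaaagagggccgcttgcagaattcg
Mt3: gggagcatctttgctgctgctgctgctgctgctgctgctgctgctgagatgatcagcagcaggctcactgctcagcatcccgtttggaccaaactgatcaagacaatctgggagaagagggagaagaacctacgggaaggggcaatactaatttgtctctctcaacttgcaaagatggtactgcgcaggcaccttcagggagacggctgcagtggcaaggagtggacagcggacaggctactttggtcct
The window of Mt2 holds 3 such cores, that of Mt1 holds 1 and that of Mt3 none. Of all 32851 windows of the same length, 21.4% hold at least 1 and 1.26% hold 3 or more. Of the 34 genes, 29 matched the RefSeq table (not Aqp4, Atp1b2, Sox9, Clu and Fjx1), some with more than 1 window. Of their 38 windows, 6 hold a core (15.8%), and these belong to 6 genes. Bases after these annotated starts, or farther before them, were not searched, so the numbers of cores are those of the windows and not of whole promoters. These letters are a description of the windows and not of binding.

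Over the 16 libraries, the deviations of Mt1 and Mt2 from their genotype means gave Pearson r = 0.97 and Spearman rho = 0.97 (permutation p = 1e-05 for both, the smallest the permutations can give, Benjamini-Hochberg adjusted 4e-05), and r was 0.97 with 2 libraries left out. In double cKOs the log2 change was 0.25 ± 0.16 for Mt1, 0.27 ± 0.17 for Mt2 and 0.27 ± 0.11 (adjusted p = 0.317) for Mt3, and for the last it was 0.17 with quantile scaling and 0.15 without control 4. In APC cKOs it was 0.15 ± 0.16, 0.13 ± 0.17 and 0.19 ± 0.11. The 14 glucocorticoid-responsive genes had 4 higher and 2 lower at an unadjusted p under 0.05 in APC cKOs and a median of 0.06, none and 2 in cOEs with a median of -0.04, and 3 and 2 in double cKOs with a median of -0.01. Klf9 was lower in all 3 lines, with log2 changes of -0.20, -0.19 and -0.27. Between lines, 1 of the 14 was called. Pdk4, a kinase gene that restrains pyruvate dehydrogenase, was at 5.11 ± 0.299 FPKM in APC cKOs and 3.47 ± 0.426 FPKM in double cKOs (SD, n = 4 each), higher by 0.55 ± 0.11 (limma adjusted p = 0.0469), and the call held under 5 of 27 alternatives, with an adjusted p of up to 0.776. Of 8 metal handling genes none had an unadjusted p under 0.05 against controls, and the medians were -0.03, -0.02 and -0.06.

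A pair of other motifs was searched in the same windows. The STAT site TTCNNNGAA, to which STAT3 binds in reactive astrocytes, is in the windows of Agt, Acsbg1, Aldoc, Ntsr2 and Slc1a3 and in 7.02% of all windows. The TCF/LEF site (CTTTGAT or CTTTGAA) is in the window of Slc1a2 alone (2.63% of the 38, against 7.48% of all windows). That window (within chr2:102706188-102706487) belongs to a RefSeq start inside the gene and not to the start of the gene at 102658659. Bases before the latter were not searched. The window of Gfap holds none of the 3 motifs, and bases farther from its start were not searched.

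The deviations of the astrocyte genes from library to library were compared pair by pair. Of the 561 pairs among the 34 genes, the median Pearson r of their deviations from the genotype means was 0.29 over 16 libraries, while 26.7% of pairs had an r over 0.5 and 25.7% an r under 0. For an astrocyte gene with any other tested gene the median was -0.01, with 8.46% over 0.5 and 51.2% under 0. All points share the same 16 libraries. Gfap had an r over 0.5 with 19 of the other 33 genes, Mlc1, Slc6a11 and Acsbg1 with 17 each. Slc1a2 had none, with a median r of -0.33, and the median was also below 0 for Ndrg2 (-0.12), Cldn10 (-0.04) and Glul (-0.02). Its r with Slc1a3 was -0.05 (permutation p = 0.856, rho = 0.04, permutation p = 0.891) and -0.46 with 2 libraries left out. Gja1 and Gjb6 gave r = 0.49 and rho = 0.52 (permutation p = 0.052 and 0.0395, adjusted 0.0693 and 0.0527, and r = 0.53 with 2 libraries left out).

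Among all tested genes, the 5 most like Gfap over the 16 libraries, by Pearson r of these deviations, were Sh3bp4 (0.92), Gprc5b (0.91), Wnt7a (0.91), Stat3 (0.90) and Ccdc109b (0.90). Those most like Aqp4 were Rnf182 (0.90), Cald1 (0.90), 1110028C15Rik (0.89), Elavl3 (0.88) and Fam196a (0.88). These are descriptions over the same libraries.

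A further 20 astrocyte genes outside the 34 were read in the same fit. In APC cKOs 3 were higher and 1 was lower at an unadjusted p under 0.05, in cOEs 1 was higher and in double cKOs 3 were higher and 3 lower, with medians of 0.05, 0.03 and 0.04. The shares of all genes by the same threshold were 4.82% higher and 5.19% lower in APC cKOs, 2.3% and 2.77% in cOEs, and 7.17% and 7.03% in double cKOs, and the counts of this and the other gene lists are to be read against them. In APC cKOs against double cKOs, 1 of the 20 was called. This was Bmpr1b, a bone morphogenetic protein receptor gene, at 7.33, 7.54, 8.32 and 8.43 FPKM in APC cKOs and at 5.38, 4.90, 6.14 and 5.06 FPKM in double cKOs. It was at 5.82, 5.82, 5.95 and 4.98 FPKM in controls and at 6.51, 6.90, 6.47 and 7.47 FPKM in cOEs. All APC cKOs and cOEs were above every control. Bmpr1b was higher in APC cKOs than in double cKOs by 0.55 ± 0.09 (limma adjusted p = 0.0134), and against controls by 0.48 ± 0.09 in APC cKOs (adjusted p = 0.0913) and 0.27 ± 0.09 in cOEs (adjusted p = 0.946). The call against double cKOs held under 21 of 27 alternatives and was lost under 6. These were the replicate block by title number (adjusted p = 0.120), the fit of only the 2 groups (0.0913), the fits without APC cKO 4 (0.0561), double cKO 2 (0.0529) or double cKO 4 (0.0541), and the fit without the 4 libraries highest in ependymal and choroid plexus genes (0.258). Itih3, an extracellular matrix protein gene, was higher than in controls by 0.37 ± 0.12 in APC cKOs and 0.42 ± 0.12 in double cKOs (adjusted p = 0.337 and 0.218).

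Of 32 genes of reactive astrocytes, 22 passed the filter. Of these, Tm4sf1 and Ggta1 were higher in APC cKOs at an unadjusted p under 0.05 and none was lower, and none differed so in the other 2 lines. Tm4sf1 was higher by 0.45 ± 0.19 and Ggta1 by 0.53 ± 0.24. The medians were 0.19, 0.07 and 0.05 in APC cKOs, cOEs and double cKOs. Per library the mean log2 level of the 32 genes was 0.23 to 0.57 in controls and 0.58 to 0.73 in APC cKOs, and its highest values were 0.89 in double cKO 2 and 0.78 in cOE 1. Of 18 genes of lipoprotein and cholesterol supply, Srebf1 was higher in APC cKOs by 0.33 ± 0.11 and Cyp46a1 in double cKOs by 0.16 ± 0.07, and the medians were 0.01, -0.03 and -0.06.

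Markers of other cells gave these values in the same libraries. Of 12 neuron genes, 3 were lower and 1 higher in APC cKOs (Snap25 at -0.24 ± 0.08), 2 lower in cOEs, and 1 lower and 1 higher in double cKOs. Of 12 endothelial genes, 4 were lower in APC cKOs (Ly6c1 at -0.41 ± 0.13), with a median of -0.16, and none was past that threshold in the other lines. Of 12 microglial genes, 4 were higher in double cKOs (Csf1r at 0.21 ± 0.08) and 1 in cOEs, and in APC cKOs against double cKOs 4 were lower (6.13% of all genes), with a median of -0.20. Of 12 mural and meningeal genes, 2 were higher and 1 lower in APC cKOs and 1 lower in double cKOs (Rgs5 in both, at -0.43 ± 0.11 and -0.36 ± 0.11). Of 10 oligodendrocyte precursor genes, Lhfpl3 was higher in double cKOs by 0.42 ± 0.13. All of these are counts at an unadjusted p under 0.05, and none was called. The mean log2 level of 12 genes of striatal neurons ran from 1.82 to 4.52 in controls, 2.24 to 5.004 in APC cKOs, 1.95 to 4.03 in cOEs and 2.09 to 4.32 in double cKOs, and none of the 12 was at an unadjusted p under 0.05 against controls. The part of these cells in the values of the astrocyte genes was not tested.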

How the data were processed

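RNA of the PFC of 16 mice (4 per genotype by their sample labels) was sequenced by the authors with Illumina TruSeq stranded mRNA libraries and paired-end reads of 100 bases. They mapped the reads to mm10 with TopHat2 (2.0.10 in the submitters' processing notes) and made normalized values with Cufflinks2, with Cuffdiff 2.1.1 for differential expression. In the deposited table, values are log2 of FPKM plus 1, as inferred here, since neither base nor offset is stated. FPKM times the median transcript length then sum to 592239 to 627186 per library over 20887 genes, where natural logs would give 5279898 to 5871089, more than the scaling of FPKM can reach. The test had been planned for FPKM, so the values were turned back. The confidence columns are empty, and depth is unknown. Nothing says whether the mice were of separate litters.

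limma 3.58.1 in R 4.3.3 (lmFit, contrasts.fit, eBayes with a trend) was run on log2(FPKM + 0.1) of the 13978 genes whose mean reached 0.5 FPKM. All 16 libraries shared 1 spread per gene, with 12 residual degrees of freedom, and p-values were adjusted by Benjamini-Hochberg over all genes. Fold changes of low genes are understated on this scale. The code was tested on simulated data. Tables used Python 3.11.15, pandas 2.3.3, numpy 2.4.6 and scipy 1.17.1.

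The 34 genes and all lists were chosen with earlier results of these data known. Libraries are numbered in accession order. Values in every library are given for Aqp4, Gfap, Slc1a2, Slc1a3, Aldh1l1, Gja1 and each gene with 1 of the 3 smallest p in any comparison, and up to 4 genes are named from each other list. These lists are other astrocyte, reactive astrocyte, lipoprotein and cholesterol supply, glucocorticoid-responsive, metal handling, neuron, oligodendrocyte, oligodendrocyte precursor, microglial, endothelial, mural and meningeal, ependymal and choroid plexus, and striatal neuron genes. Libraries with the same title number deviated together between APC cKOs and cOEs (r = 0.11 to 0.32, each of 3 pairs over 0.1). Between the other groups only 1 pair was over 0.1. By neighbouring columns it was 4 of 4 pairs and again 1 pair between the other groups. The main fit holds no pairing, so the SE and p of APC cKOs against cOEs take no account of these shared deviations. The title number was used as a block only in an alternative fit. Correlations used 100000 permutations of the deviations over all libraries, not within genotypes. These take no account of the genotype means removed or of deviations that libraries share, so their p-values are approximate. Positions are from GENCODE for mm10 and promoter sequences from RefSeq (GRCm38.p6). Alternatives were a pseudocount of 1, a mean of 2 FPKM or no filter at all, quantile and median-of-ratios scaling, no trend, sex, a replicate block, only the groups compared, and each library left out. A result of 1 gene of these lists is not reported here.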

Additional observations from a re-analysis of the deposited data

Results flagged for a closer look

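Among the 136 groups of 4 libraries (34 genes in 4 genotypes), 9 held a library whose gap to the nearest of the others, as a share of the range of the group, was above Dixon's 95% critical value. Chance gives 1 in 20, or 6.8 of 136. In APC cKO 1, Gfap was at 131.6 FPKM, with the others at 61.4 to 69.0 FPKM (0.891), and Acsbg1 at 57.7 FPKM, with the others at 46.5 to 47.1 FPKM (0.946). In cOE 4, Id4 was at 40.7 FPKM, with the others at 26.3 to 27.1 FPKM (0.942), and Fgfr3 was the lowest at 23.1 FPKM, with the others at 25.1 to 25.5 FPKM (0.836). In cOE 1, Slc6a11 was at 86.8 FPKM, with the others at 43.6 to 50.4 FPKM (0.841). In double cKO 2, Mlc1 was at 89.8 FPKM, with the others at 73.2 to 75.8 FPKM (0.844), and Sox9 at 5.59 FPKM, with the others at 4.46 to 4.63 FPKM (0.852). In control 4, Slc4a4 was at 28.1 FPKM, with the others at 20.6 to 21.5 FPKM (0.89), and Apoe was the lowest at 1036 FPKM, with the others at 1192 to 1222 FPKM (0.839).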

How the results depend on the processing

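The log2 changes of the 19 gene and comparison pairs against controls at an unadjusted p under 0.05 kept their direction in all 513 values from 27 alternatives. In 512 they kept their side of an adjusted p under 0.05. The exception was Cst3 in APC cKOs without control 1 (adjusted p = 0.028). Many of these changes could not differ, since another filter, no trend or a fit of only the groups compared leaves them the same. So does leaving out a library of a genotype outside the comparison. The 19 pairs were also picked from these same data by their p. The unadjusted p was under 0.05 in all 27 alternatives for 7 of the 19 pairs (in APC cKOs Cst3, Gfap, Id4 and S100b, in cOEs Fjx1, in double cKOs Cldn10 and Slc1a2) and in 12 to 25 for the other 12, with Vim in APC cKOs at 12 and Gja1 and Glul in cOEs at 16. In 17 of the 513 values, from 11 pairs, the change moved by over 1.5 times. With quantile scaling these were Apoe in APC cKOs (0.14) and, in double cKOs, Clu (0.06), Cst3 (0.16) and Mt3 (0.17). The number of the 34 genes called was 0 to 1 with each library left out for APC cKOs against controls and 0 for the other 5 comparisons, and 0 under all other alternatives. The number at an unadjusted p under 0.05 moved by over 1.5 times under some. With quantile scaling it was 2 in cOEs and 2 in double cKOs against controls, without the trend 2 in cOEs, and with sex as a covariate 8 in double cKOs. For APC cKOs against double cKOs it was 3 with only those groups fitted. Without the 4 libraries highest in ependymal and choroid genes, an alternative chosen after seeing the data, it was 5 in APC cKOs and 3 in double cKOs against controls, and the median change in APC cKOs was -0.068. With each library left out, the number ran from 5 to 13 in APC cKOs, 1 to 5 in cOEs and 2 to 7 in double cKOs against controls, 3 to 8 in APC cKOs and 2 to 5 in cOEs against double cKOs, and 3 to 8 in APC cKOs against cOEs. The medians ran in the same order from 0.02 to 0.14, 0.04 to 0.11, 0.01 to 0.11, -0.04 to 0.05, -0.09 to 0.07 and -0.04 to 0.06. The shares of all genes at that threshold are not given for the alternatives, so these counts have no background. The cause of these moves was not tested.

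With the number in the sample title as a replicate block, the count for APC cKOs against double cKOs was 2 in place of 5. That block changed no other count by over 1.5 times and no call. A block of the 4 sets of neighbouring columns in the deposited table, chosen after seeing the data, gave counts of 9, 3 and 5 against controls, 4 and 2 against double cKOs and 4 in APC cKOs against cOEs, with no call. The limits are 4 mice per genotype, an unknown depth, and values that carry no count of fragments, so that the error of counting in low genes such as Agt cannot be given.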
